A study of Mus musculus with 12 samples.

Results

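The type I interferon stimulated genes measured here are 43 genes that are known to be induced when type I interferon reaches a cell, among them antiviral effectors, sensors of viral nucleic acid and the signaling genes that carry the interferon response. They were chosen by symbol from knowledge of the pathway, by a rule that uses none of their values but with earlier results of these data known, and all 43 were among the 11264 genes of the deposited table. RNA was sequenced from tumor-infiltrating cDC1s, the conventional dendritic cells that take up dead cells and present their antigens to CD8+ T cells. They were sorted from day 13 tumors of B16F10, a mouse melanoma line, by way of CD11c+ enrichment and a gate for cells positive for CD45, MHCII, CD24 and CD103 that lacked Ly6C, F4/80 and CD11b. The 4 groups had 3 libraries each, every library being a pool of 2 to 3 mice of 7 to 10 weeks of age on the C57BL/6 background. Clec9a gfp/gfp FL came from mice that lack DNGR-1, because gfp replaces its gene Clec9a on both alleles, and that were injected hydrodynamically, 1 day ahead of the tumor inoculation, with a plasmid encoding Flt3L (FL). WT FL came from mice with intact Clec9a that received the same plasmid. Clec9a gfp/gfp control came from DNGR-1-deficient mice given an empty plasmid, and WT control from WT mice given an empty plasmid. All mice carried tumors, so no group shows cDC1s of a tumor-free animal, and the gate selects CD103+ cells only. The allele is germline, so every cell of the mutant mice carried it.

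Type I interferons bind a receptor made of Ifnar1 and Ifnar2, whose kinases Jak1 and Tyk2 phosphorylate Stat2. Stat2 joins Irf9 in the complex ISGF3, which binds the interferon-stimulated response element (ISRE) in the promoters of its targets. In tumors, type I interferon acting on cDC1s is known to be needed for the priming of antitumor CD8+ T cells in mice. Flt3L is the growth factor of dendritic cells, and DNGR-1 is a receptor of cDC1s for the actin filaments that dead cells expose. The comparisons ask whether FL moved the interferon-stimulated genes in each genotype, whether loss of DNGR-1 moved them under either plasmid, and whether the FL effect differed between the genotypes.

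The ISRE core was found in the promoters of some members, and 5 of those that were called are shown here, because their values are described below. The sequences come from the RefSeq promoter table on GRCm38.p6, which gives 250 bases before and 50 bases after a start of a gene. It held 32 of the 43 members, in 38 windows. Capitals mark matches to the ISRE core, GAAA, any 2 bases and GAAA, on either strand, and overlapping matches run together in 1 stretch. Ifih1 (chr2:62646206-62646505, minus strand) encodes MDA5, a cytosolic sensor of long double-stranded RNA. Isg15 (chr4:156200769-156201068, minus strand) encodes a ubiquitin-like modifier. Oas1a (chr5:120907476-120907775, minus strand) and Oas3 (chr5:120777610-120777909, minus strand) encode 2′-5′ oligoadenylate synthetases, which activate RNase L. Stat2 (chr10:128270248-128270547, plus strand) is the transactivating subunit of ISGF3.
Ifih1: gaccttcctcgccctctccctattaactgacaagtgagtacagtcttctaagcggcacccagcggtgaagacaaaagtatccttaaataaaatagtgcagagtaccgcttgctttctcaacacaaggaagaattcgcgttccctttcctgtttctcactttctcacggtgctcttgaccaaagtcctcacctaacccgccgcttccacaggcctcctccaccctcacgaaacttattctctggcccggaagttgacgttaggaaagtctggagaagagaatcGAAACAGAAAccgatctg
Isg15: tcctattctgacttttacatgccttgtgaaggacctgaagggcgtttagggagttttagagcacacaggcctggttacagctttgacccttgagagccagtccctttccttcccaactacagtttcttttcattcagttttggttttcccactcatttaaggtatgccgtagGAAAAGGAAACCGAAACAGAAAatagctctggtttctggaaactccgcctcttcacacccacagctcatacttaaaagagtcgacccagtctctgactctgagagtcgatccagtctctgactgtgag
Oas1a: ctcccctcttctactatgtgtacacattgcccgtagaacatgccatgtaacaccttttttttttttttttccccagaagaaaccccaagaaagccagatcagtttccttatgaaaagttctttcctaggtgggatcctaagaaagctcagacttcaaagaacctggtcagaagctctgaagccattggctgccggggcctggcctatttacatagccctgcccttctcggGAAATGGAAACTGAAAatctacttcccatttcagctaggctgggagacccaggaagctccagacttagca
Oas3: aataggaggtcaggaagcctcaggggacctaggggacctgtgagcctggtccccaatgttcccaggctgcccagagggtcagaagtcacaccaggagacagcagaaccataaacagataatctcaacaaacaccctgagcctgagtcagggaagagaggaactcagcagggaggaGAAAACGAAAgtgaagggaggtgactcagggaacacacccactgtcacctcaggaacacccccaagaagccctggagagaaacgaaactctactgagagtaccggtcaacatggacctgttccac
Stat2: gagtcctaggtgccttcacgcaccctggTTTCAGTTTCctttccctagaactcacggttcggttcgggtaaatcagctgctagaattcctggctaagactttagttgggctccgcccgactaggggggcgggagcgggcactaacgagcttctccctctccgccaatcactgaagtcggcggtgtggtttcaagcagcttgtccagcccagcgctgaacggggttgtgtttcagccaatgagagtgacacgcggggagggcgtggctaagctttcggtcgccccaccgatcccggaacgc
Isg15 held 3 overlapping matches, which begin 78, 72 and 66 bases before the start. Oas1a held an overlapping pair at 20 and 14 bases before the start, Oas3 a match at 75 bases before it, and Stat2 a match on the other strand at 222 bases before it. The match of Ifih1 lies after the start. The ISRE core was present in 12 of the 32 members (37.5%), against 3.99% of the 27025 genes of the promoter table. The core of the GAS element, TTC, any 3 bases and GAA, on either strand, was present in 7 of the 32 (21.9%), against 9.55% of those genes. A match in letters is no measure of binding. Mx1, Mx2, Dhx58, Ly6e, Parp9, Parp14, Zbp1, Usp18, Oas2, Rtp4 and Trim14 had no entry in the table.

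Effective library sizes were 14.4 to 25.9 M counts (M being 1000000) in 11 libraries and 3.06 M counts in Clec9a gfp/gfp control 3. The lowest count behind any value of a member was 8, for Rtp4 in that library. Values are counts per M counts after TMM scaling, written below as CPM. Clec9a was at 0.269 to 1.36 CPM in Clec9a gfp/gfp FL and 0.509 to 10.9 CPM in Clec9a gfp/gfp control, against 328 to 388 CPM in WT FL and 288 to 371 CPM in WT control, so each library matched its genotype label. The cDC1 markers were all in the table, and without Clec9a these 13 genes summed to between 14060 and 17128 CPM in every library. The markers of NK cells, B cells and neutrophils were absent from the table, as were 7 of 8 T cell markers. The 5 measured fibroblast and endothelium markers summed to 10.8 to 31.4 CPM in most libraries. They reached 91.1 and 58.6 CPM in Clec9a gfp/gfp FL 3 and 2, and 57.3 CPM in Clec9a gfp/gfp control 3. Their median log2 fold change for FL was 0.84 in Clec9a gfp/gfp and 0.44 in WT, with 0 called. The 6 measured melanoma markers reached 112 CPM in Clec9a gfp/gfp control 3, against 16.1 to 67.3 CPM elsewhere. Siglech, which defines plasmacytoid dendritic cells, a rich source of type I interferon, was at most 7.29 CPM in any library. The 5 measured markers of those cells that are not members summed to between 45.7 and 76.6 CPM. Among them, FL raised Spib in Clec9a gfp/gfp (log2 fold change 1.77 ± 0.41, limma, adjusted p = 0.0279). Spib stood at 1.23 ± 0.41 in WT (adjusted p = 0.104), and the others were not called for FL in either genotype. On the first principal component of all genes, which held 32.9% of the variance, WT control 1 and 3 lay at 49.96 and 54.94 and Clec9a gfp/gfp FL 3 at −46.26, while the other 9 libraries lay between −27.26 and 11.94. These 3 libraries stand apart from the other 9 on this component. WT control 1 and 3 are, however, 2 of the 3 libraries of their group, whose library 2 lay at 5.37. Counts and medians of the members without these libraries are given for some comparisons only, and other values may depend on them too.

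Clec9a gfp/gfp FL 3 stood out in the interferon-stimulated genes themselves. It held the highest of the 12 values for 29 of the 43 members (67.4%), whereas it held the highest value for 14.3% of all genes tested. Its members lay a median of 0.75 above their means over the 12 libraries on the log2(value + 1) scale, and 41 of 43 lay above. The next library, WT FL 2, lay a median of 0.31 above, and WT control 1 lay lowest at −0.43. The heat map of all members shows this library as a red column through nearly every role. In the same library the summed markers of mature dendritic cells, 10 genes such as Ccr7 and Cd83 that rise as dendritic cells mature, reached 11363 CPM. The other libraries had 4968 and 5416 CPM in Clec9a gfp/gfp FL, 3950 to 5919 CPM in WT FL, 2932 to 3959 CPM in Clec9a gfp/gfp control and 2178 to 3825 CPM in WT control. The 13 measured macrophage and monocyte markers were also highest there, at 1815 CPM, against 965 to 1726 CPM in the other 11 libraries. How both lists moved with FL is given beside the members. Their part in the levels of the members was not tested. In bulk RNA, more cells in a given state and more RNA per cell cannot be told apart.

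**Figure D1:**
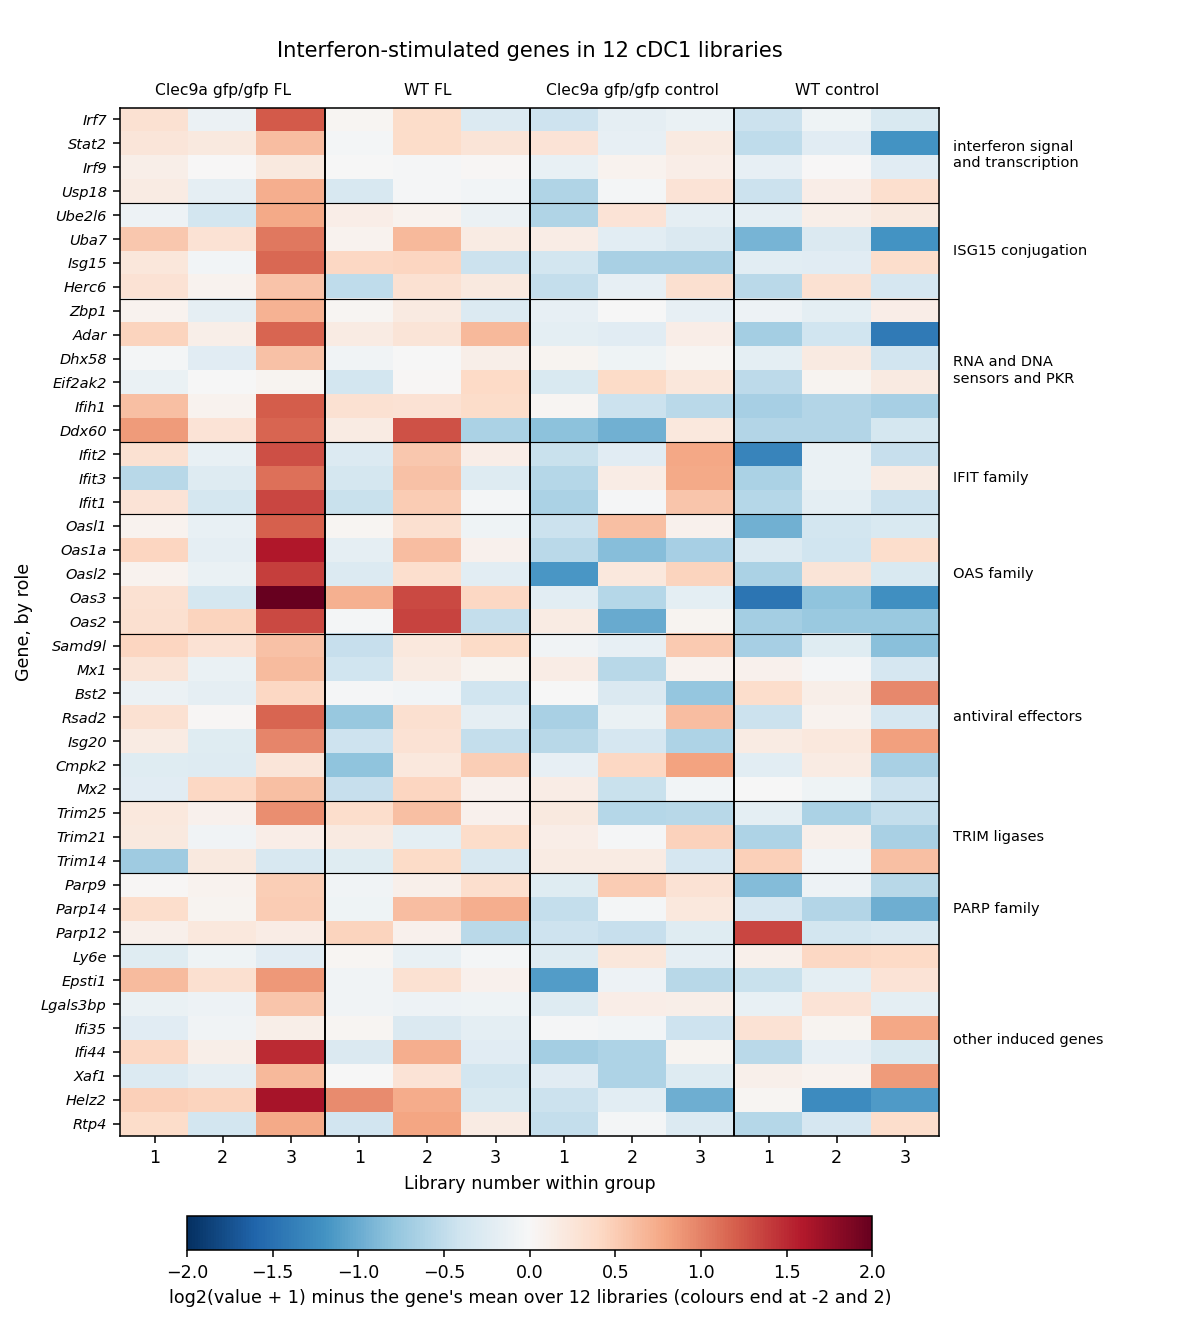
Each row is an interferon-stimulated gene, grouped by role, and each column a library, with 3 libraries per group. Color gives log2(value + 1) minus the gene's mean over the 12 libraries, and Clec9a gfp/gfp FL 3 holds the highest value of 29 of the 43 genes.

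The members differed widely in level when scaled per kilobase of exon. Ly6e, a surface protein of the Ly6 family, was highest at 553 CPM per kb over the 12 libraries. It was followed by Irf7, the transcription factor that amplifies interferon production, at 101 CPM per kb, Ube2l6 at 98.8, Bst2 at 91.4 and Ifi35 at 88.3. The lowest were Oas3 at 2.43, Rtp4 at 1.78, Oas2 at 0.881 and Ddx60 at 0.503 CPM per kb. The sum of the members without Ly6e was 4314 ± 1362 CPM in Clec9a gfp/gfp FL, 3526 ± 376 CPM in WT FL, 3103 ± 253 CPM in Clec9a gfp/gfp control and 2891 ± 234 CPM in WT control (SD, n = 3 each). With Clec9a gfp/gfp FL 3 left out, the other Clec9a gfp/gfp FL libraries averaged 3542 ± 361 CPM (SD, n = 2), beside the 3526 CPM of WT FL. The mean was highest in Clec9a gfp/gfp FL for 32 members and lowest in WT control for 26. Without Clec9a gfp/gfp FL 3 these counts were 13 and 22, and WT FL then also held the highest mean of 13. In the genome, 13 members lie within 100 kb of another member, namely the pairs Oasl2 and Oasl1, Oas2 and Oas3, Rsad2 and Cmpk2, Parp14 and Parp9, and Mx1 and Mx2, and the cluster of Ifit2, Ifit3 and Ifit1 on chromosome 19.

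FL raised 5 interferon-stimulated genes, Epsti1, Oas1a, Ifih1, Helz2 and Isg15, in Clec9a gfp/gfp cDC1s by 1.91-fold to 2.62-fold on the value + 1 scale, and lowered none. These are 11.6% of the members, against 2.01% of all 11255 genes tested that were called higher (3.45% were called lower), in limma with Benjamini-Hochberg adjustment at an adjusted p under 0.1. The median log2 fold change of the 43 members was 0.42, with a median SE of 0.28, against 0.01 over all genes, and 37 of 43 were above 0 (50.9% of all genes were). At an unadjusted p under 0.05, 13 members were higher and 0 lower, against 7.31% and 9.16% of all genes. All 3 FL values lay above all 3 control values for 12 members and below for 0, against 10.6% and 13.6% of all genes. Limma-voom called 1 member and 1.08% of all genes higher. The count of members moved with single libraries, as did that of all genes: it was 0 when the Clec9a gfp/gfp FL library 3 was left out, 1 when FL library 1, control library 2 or control library 3 of that genotype was left out, and 8 when its FL library 2 was. Of all genes, 0.187%, 0.693%, 1.19%, 0.551% and 2.11% were called higher in the same 5 settings, in the order given. The median of the members was 0.21 without FL library 3, with 6 higher at an unadjusted p under 0.05, and, with 0 called, 0.32 without both that library and the shallow control library 3, where 0 of all genes were called. Markers of other cells and states moved with the members in this comparison. Of 13 macrophage and monocyte markers 4 were called higher and 9 had an unadjusted p under 0.05 in that direction, with a median of 0.98, and of the 10 mature dendritic cell markers 3 were called higher, with a median of 0.68. With FL library 3 left out, 0 of either list were called, and the medians were 0.79 and 0.32.

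In WT cDC1s, FL raised 6 interferon-stimulated genes, Oas3, Uba7, Adar, Parp14, Stat2 and Ifih1, by 1.79-fold to 3.95-fold, and lowered none. These are 14% of the members, against 5.37% of all genes called higher and 1.19% called lower in limma, and 33 of 43 members were above 0, against 49.7% of all genes. The median log2 fold change of the members was 0.19, against −0.01 over all genes. At an unadjusted p under 0.05, 11 members were higher and 2 lower, against 13.7% and 8.25% of all genes, and the lower pair was Bst2 and Ifi35. The groups did not overlap for 10 members higher and 3 lower, against 12.1% and 10.8% of all genes. The count was 0 when FL library 2, FL library 3 or control library 3 of the WT mice was left out, where 0%, 0.32% and 0% of all genes were called higher. With WT control 2 left out it was 9, beside 13.8% of all genes, and Bst2 and Ifi35 were then called lower, beside 8.69% of all genes. The genes as a whole lost and gained calls in the same settings. Of the macrophage and monocyte markers FL called 0 of 13 in WT, with a median of 0.26, and of the mature dendritic cell markers 1 of 10, with a median of 0.74. In all, 10 members were called for FL in either genotype and 1, Ifih1, in both. The FL effects by genotype are plotted with their SE for all 43 genes.

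**Figure D2:**
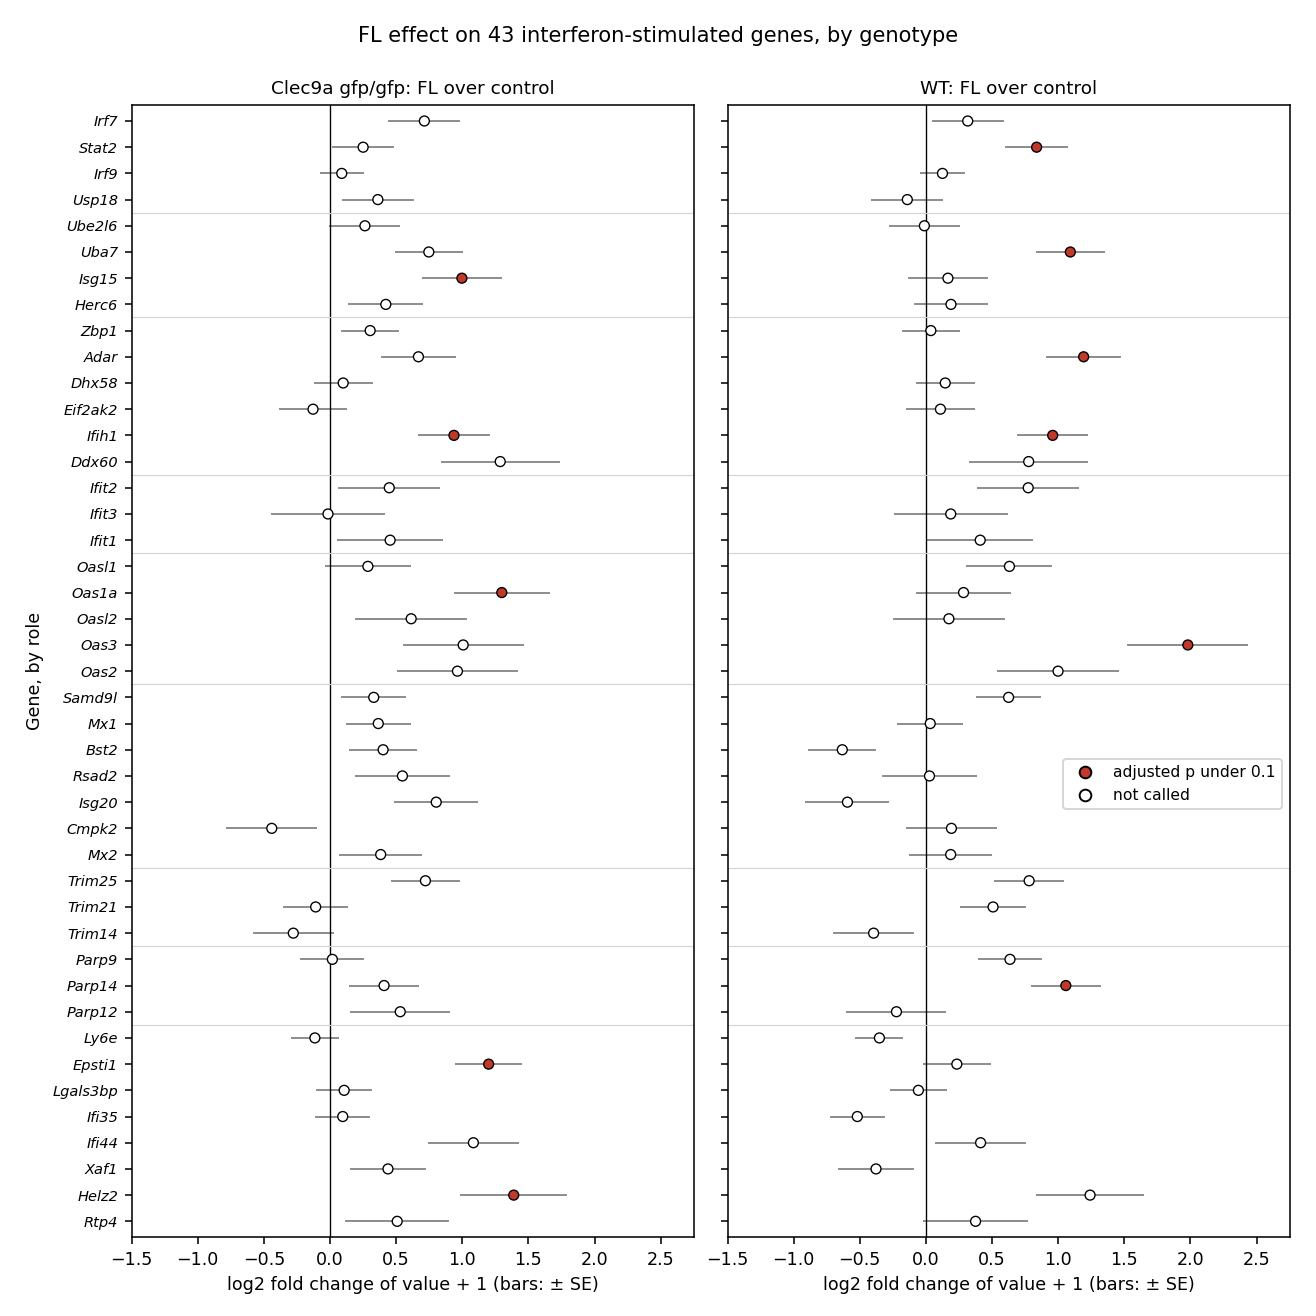
Log2 fold change of value + 1 for FL over control, with Clec9a gfp/gfp cDC1s in the left panel and WT cDC1s in the right panel. Bars are ± SE from limma and filled points have an adjusted p under 0.1, 5 on the left and 6 on the right, all above 0.

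Whether the FL effect itself differed between the genotypes was tested as an interaction. No member passed: limma called 0 of 43, as it called 0 of all genes, and the smallest adjusted p of a member was 0.455. At an unadjusted p under 0.05 there were 3 members, all with the larger FL effect in Clec9a gfp/gfp, against 3.08% of all genes in that direction and, with 0 members, 6.04% in the other. They were Isg20 at 1.40 ± 0.45, Bst2 at 1.03 ± 0.37 and Epsti1 at 0.97 ± 0.36 (log2 difference ± SE). A gene called in 1 genotype and not in the other is therefore not shown to differ between them. Isg20, Bst2 and Epsti1 have summed exon lengths of 1860, 903 and 2321 bases, against a median of 3995 bases over the members. The median interaction was 0.27 in members up to that length and −0.04 in longer ones. Over all genes split at the same length it was 0.16 and −0.20. The part of length in these differences was not tested.

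Under FL, loss of DNGR-1 moved no interferon-stimulated gene past the threshold. Limma called 0 of 43 members in Clec9a gfp/gfp FL over WT FL, against 0.00888% of all genes called higher and 0.0178% called lower. At an unadjusted p under 0.05, 0 members were higher and 0 lower, against 1.23% and 2.6% of all genes. The members were above 0 in 36 of 43 cases, against 49.9% of all genes, with a median of 0.21. Without Clec9a gfp/gfp FL 3 that median was −0.04. Rsad2, which encodes viperin, had the largest difference, at 0.70 ± 0.36 (unadjusted p = 0.0660). It had 35.4, 29.1 and 65.1 CPM in Clec9a gfp/gfp FL, against 16.4, 35.9 and 25.1 CPM in WT FL. The groups overlapped for Rsad2, and Epsti1 was the only member of the 43 whose Clec9a gfp/gfp FL values all lay above the WT FL values, against 4.53% of all genes, and 0 members lay wholly below, against 5.36%.

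With the empty plasmid, loss of DNGR-1 also moved no member past the threshold, and the members went both ways. Limma called 0 of 43 in Clec9a gfp/gfp control over WT control, against 0.00888% of all genes called higher and 0.0178% called lower, with a smallest adjusted p of 0.188. At an unadjusted p under 0.05, 6 members were higher and 4 lower, against 10.8% and 8.84% of all genes. The higher ones were Stat2, Parp9, Samd9l, Uba7, Adar and Trim21, and the lower ones Bst2, Isg20, Ifi35 and Xaf1. Summed exon length was above the member median of 3995 bases for the higher ones except Trim21, and below it for the lower ones except Xaf1. The median change was 0.25 in members above that length and −0.06 in the others. Over all genes split at the same length it was 0.22 and −0.15. The part of length in this split was not tested. With WT control 2 left out, 6 members were called higher and 4 lower at an adjusted p under 0.1, shares near the 11.9% and 8.87% of all genes called in that setting. With WT control 1 or WT control 3 left out, 0 members were called, with 4 higher and 6 lower and with 2 higher and 1 lower at an unadjusted p under 0.05. The median of the members was 0.08, against 0.05 over all genes, and 26 of 43 were above 0, against 54.2% of all genes. The groups did not overlap for 5 members higher and 6 lower, against 8.23% and 8.25% of all genes.

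Where genotype and plasmid both differed, Clec9a gfp/gfp FL over WT control, 17 members were higher and 1, Ly6e, lower. These are 39.5% and 2.33% of the members, against 12.8% of all genes called higher and 9.85% called lower, and the median was 0.50. The members were above 0 in 36 of 43 cases (50.5% of all genes were), and the groups did not overlap for 16 higher and 1 lower, against 16.2% and 17.5% of all genes. Besides 8 of the 10 members called for FL alone, Samd9l, Trim25, Oas2, Ifi44, Parp9, Ifit2, Ddx60, Oasl1 and Irf7 were called higher here. Of the 17, 13 were among the 21 members with a summed exon length above 3995 bases, and 4 among the 22 others. The median change was 0.94 in those longer members and 0.32 in the others, and over all genes split at that length 0.19 and −0.22. The count of higher members was 3 when Clec9a gfp/gfp FL 3 was left out, 7 when WT control 3 was, 10 when WT control 1 was and 11 when Clec9a gfp/gfp FL 1 was. The shares of all genes called higher in these settings were 2.94%, 4.2%, 9.18% and 7.17%. Of the mature dendritic cell markers 6 of 10 were called higher in this comparison, and of the macrophage and monocyte markers 2 of 13. Across all 6 comparisons, 20 members were called at least once and 23 never. This comparison shares its libraries with those above, so its calls are not separate evidence.

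Among the genes of interferon signal and transcription, Stat2 was called, and Irf7, Irf9 and Usp18 were not called for FL in either genotype. Stat2 had 253, 336 and 313 CPM in WT FL, against 182, 224 and 113 CPM in WT control. The WT groups did not overlap, and the log2 fold change was 0.84 ± 0.24 (limma, adjusted p = 0.0735). Stat2 had 309, 297 and 399 CPM in Clec9a gfp/gfp cDC1s with FL, against 315, 232 and 297 CPM with the empty plasmid, a change of 0.25 ± 0.24. Irf7, the interferon-induced amplifier of the response, had 447, 332 and 848 CPM in Clec9a gfp/gfp FL, against 270.0, 319 and 330.4 CPM in Clec9a gfp/gfp control. All 3 FL values lay above the controls, by little in the library with 332 CPM, and the change of 0.71 ± 0.27 missed the threshold (adjusted p = 0.186). In WT cDC1s Irf7 had 372, 466 and 298 CPM with FL, against 269, 341 and 292 CPM with the empty plasmid. Irf7 shares an exon region with Phrf1 on the other strand, and the library kit does not keep the strand, so reads there cannot be told apart. Irf9, the DNA-binding subunit of ISGF3, varied little, with 171, 158 and 179 CPM in Clec9a gfp/gfp FL, 156, 154 and 159.7 CPM in WT FL, 142, 165 and 172 CPM in Clec9a gfp/gfp control and 139.7, 157 and 134 CPM in WT control. Usp18, which removes ISG15 from proteins and dampens the receptor, had 119, 94.6 and 178 CPM in Clec9a gfp/gfp FL, against 70.0, 103 and 129.7 CPM in Clec9a gfp/gfp control. The groups of Usp18 overlapped, as they did in WT cDC1s (85.7, 105 and 103 CPM with FL, against 79.0, 117 and 135 CPM with the empty plasmid).

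The ISG15 system attaches a ubiquitin-like protein to targets by way of Uba7 as its E1, Ube2l6 as its E2 and, in mice, Herc6 as its main E3. Isg15 had 60.9, 49.7 and 116 CPM in Clec9a gfp/gfp FL, against 39.8, 32.8 and 32.5 CPM in Clec9a gfp/gfp control. The groups did not overlap, and the log2 fold change was 1.00 ± 0.30 (limma, adjusted p = 0.0932). It was 0.64 with an adjusted p of 0.445 without Clec9a gfp/gfp FL 3. In WT cDC1s Isg15 had 69.4, 69.8 and 38.3 CPM with FL, against 44.5, 44.3 and 66.2 CPM with the empty plasmid, and the groups overlapped. Uba7 was higher with FL in WT cDC1s, at 149, 224 and 161 CPM, against 74.9, 117 and 61.8 CPM with the empty plasmid (1.09 ± 0.26, adjusted p = 0.0479). In Clec9a gfp/gfp cDC1s the groups of Uba7 did not overlap either, with 209, 175 and 296 CPM under FL, against 158, 123 and 117 CPM under the empty plasmid, but the change of 0.75 ± 0.26 was not called (adjusted p = 0.141). Ube2l6 and Herc6 were not called in any comparison, and Usp18 is given above.

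The sensors and RNA-binding members include the 1 gene called for FL in both genotypes. Ifih1 had 35.9, 24.8 and 55.4 CPM in Clec9a gfp/gfp FL, against 24.1, 17.1 and 15.8 CPM in Clec9a gfp/gfp control (0.94 ± 0.27, limma, adjusted p = 0.0758). In WT cDC1s it had 29.3, 28.9 and 30.4 CPM with FL, against 14.4, 15.3 and 14.5 CPM with the empty plasmid (0.96 ± 0.27, adjusted p = 0.0735). The WT libraries were tight and wide apart, whereas the Clec9a gfp/gfp FL values were spread out and the lowest of them lay just above the highest control. Ifih1 stayed called in 18 of 24 alternatives in Clec9a gfp/gfp and in 15 of 24 in WT. Among these, with single libraries left out, it was called in 8 of 12 fits in Clec9a gfp/gfp and in 6 of 12 in WT. Adar, which edits adenosine in double-stranded RNA, had 114, 122 and 161 CPM in WT FL, against 62.7, 77.1 and 37.5 CPM in WT control (1.19 ± 0.28, adjusted p = 0.0488). Adar in Clec9a gfp/gfp cDC1s had 138, 109.8 and 228 CPM with FL, against 88.6, 86.3 and 111 CPM with the empty plasmid, and the groups overlapped. Ddx60, a helicase, was the lowest member per kilobase and had 7.41, 4.66 and 9.44 CPM in Clec9a gfp/gfp FL, against 1.64, 1.40 and 4.41 CPM in Clec9a gfp/gfp control. These groups did not overlap, but the change of 1.29 ± 0.45 was not called (adjusted p = 0.143). Dhx58 (LGP2), Zbp1, a sensor of Z-form nucleic acid, and Eif2ak2, the kinase PKR, were not called in any comparison. Eif2ak2 was nearly level, at 37.7, 41.2 and 43.1 CPM in Clec9a gfp/gfp FL, 31.8, 41.8 and 54.7 CPM in WT FL, 33.3, 54.5 and 48.5 CPM in Clec9a gfp/gfp control and 28.6, 43.0 and 47.0 CPM in WT control.

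Of the OAS family, Oas1a was called in Clec9a gfp/gfp cDC1s and Oas3 in WT cDC1s. Oas3 had 21.9, 34.2 and 17.7 CPM in WT FL, against 4.11, 7.02 and 5.02 CPM in WT control. This was the largest FL effect of any member, 1.98 ± 0.46 (limma, adjusted p = 0.0473), and the groups lay well apart. Oas3 in Clec9a gfp/gfp cDC1s had 16.4, 9.96 and 58.7 CPM with FL, against 11.1, 8.43 and 11.3 CPM with the empty plasmid. The groups overlapped there, and the change of 1.01 ± 0.46 was carried by the library with 58.7 CPM. Oas1a had 41.5, 26.7 and 94.1 CPM in Clec9a gfp/gfp FL, against 20.7, 16.5 and 18.8 CPM in Clec9a gfp/gfp control (1.30 ± 0.36, adjusted p = 0.0645). Without Clec9a gfp/gfp FL 3 it was 0.81 with an adjusted p of 0.332. Oas1a has a near-identical neighbor, Oas1g, which was also called there (1.80 ± 0.47, adjusted p = 0.0506), and the estimation of counts could split reads between the copies. Oas2 had 3.15, 9.87 and 2.08 CPM in WT FL, against 1.66, 1.56 and 1.56 CPM in WT control, and 4.33, 4.83 and 9.68 CPM in Clec9a gfp/gfp FL, against 3.78, 1.12 and 3.43 CPM in Clec9a gfp/gfp control. Its groups did not overlap in either genotype, but its change was not called in either. Oasl1, which in mice limits the translation of Irf7, had 72.7, 88.4 and 66.9 CPM in WT FL, against 36.0, 54.8 and 57.3 CPM in WT control (0.63 ± 0.32, adjusted p = 0.262). The remaining member of the family, Oasl2, was not called in any comparison.

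**Figure D3:**
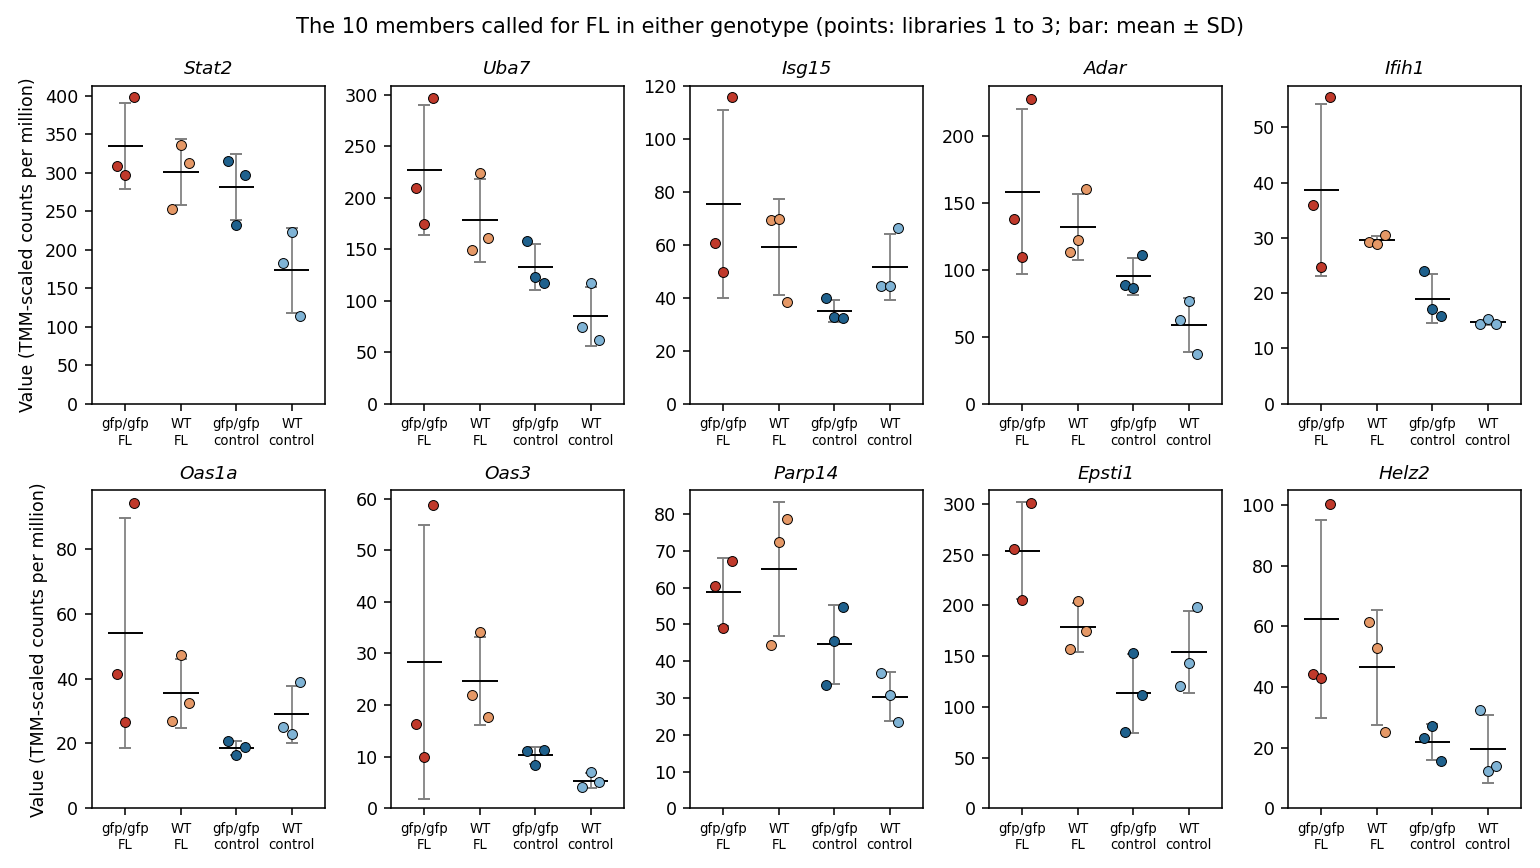
Values in CPM for the 10 genes called for FL in either genotype, with a point per library in the order 1 to 3 and a bar for the mean ± SD of each group. For 9 of the 10 genes the highest point is the same library, Clec9a gfp/gfp FL 3, and Parp14 is the exception.

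The IFIT proteins, which bind viral RNA that lacks the marks of host RNA, did not pass for FL in either genotype. Ifit2 had 109, 79.0 and 216 CPM in Clec9a gfp/gfp FL, 72.5, 129 and 96.2 CPM in WT FL, 64.1, 75.4 and 151 CPM in Clec9a gfp/gfp control and 34.5, 80.3 and 63.4 CPM in WT control. All 4 groups overlapped with each other. Ifit1 and Ifit3 moved by at most 0.45 in either FL comparison, with an SE of 0.40 or more. Ifit3 has the close copy Ifit3b, so its reads are uncertain.

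The antiviral effectors split in direction between members in WT cDC1s, with no call. Bst2, tetherin, which holds budding virus at the cell surface, had 77.3, 75.8 and 59.9 CPM in WT FL, against 101, 85.3 and 154 CPM in WT control. All WT FL values lay below the controls, at −0.63 ± 0.26 (limma, adjusted p = 0.173). Bst2 in Clec9a gfp/gfp cDC1s had 72.9, 69.7 and 106 CPM with FL, against 78.6, 64.1 and 45.9 CPM with the empty plasmid (0.40 ± 0.26). Isg20, an RNA exonuclease, had 21.3, 15.8 and 37.99 CPM in Clec9a gfp/gfp FL, against 12.6, 14.8 and 11.9 CPM in Clec9a gfp/gfp control. These did not overlap (0.80 ± 0.32, adjusted p = 0.204). In WT cDC1s Isg20 had 13.9, 23.3 and 13.3 CPM with FL, against 21.1, 22.0 and 34.0 CPM with the empty plasmid (−0.59 ± 0.32). Samd9l, a restriction factor, had 198, 180.1 and 221 CPM in Clec9a gfp/gfp FL, 107, 170.3 and 193 CPM in WT FL, 141, 132 and 213 CPM in Clec9a gfp/gfp control and 92.9, 125 and 82.2 CPM in WT control. Samd9l was called in Clec9a gfp/gfp FL over WT control and in no other comparison. Cmpk2, a mitochondrial nucleotide kinase next to Rsad2, had the lowest FL effect in Clec9a gfp/gfp, −0.44 ± 0.35. It had 15.0, 14.9 and 21.4 CPM with FL, against 16.0, 24.3 and 32.1 CPM with the empty plasmid. Mx1, which encodes a GTPase, had 132, 100.2 and 172 CPM in Clec9a gfp/gfp FL, 83.3, 124 and 115 CPM in WT FL, 122, 74.5 and 116 CPM in Clec9a gfp/gfp control and 117, 109 and 86.9 CPM in WT control. The groups of Mx1 overlapped in every comparison, as did those of Mx2, its close relative.

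Of the TRIM ubiquitin ligases, Trim25, an activator of RIG-I, was called in Clec9a gfp/gfp FL over WT control and in no comparison of a single factor. It had 89.9, 107 and 75.0 CPM in WT FL, against 61.2, 45.2 and 50.1 CPM in WT control (0.78 ± 0.26, limma, adjusted p = 0.112). In Clec9a gfp/gfp cDC1s it had 81.6, 74.8 and 135 CPM with FL, against 80.6, 47.0 and 47.5 CPM with the empty plasmid (0.72 ± 0.26, adjusted p = 0.165). Trim14, an adaptor on mitochondria, was below 0 in the 4 comparisons of a single factor. It had 7.90, 15.8 and 10.8 CPM in Clec9a gfp/gfp FL, 11.4, 18.1 and 10.7 CPM in WT FL, 15.5, 15.4 and 10.6 CPM in Clec9a gfp/gfp control and 19.4, 13.0 and 21.2 CPM in WT control. Those groups overlapped throughout. Trim21, an intracellular antibody receptor, was not called.

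Parp14, an ADP-ribosyltransferase, was called in WT cDC1s, with 44.4, 72.4 and 78.6 CPM under FL, against 36.8, 30.9 and 23.4 CPM under the empty plasmid (1.06 ± 0.26, limma, adjusted p = 0.0516). In Clec9a gfp/gfp cDC1s it had 60.3, 49.0 and 67.2 CPM with FL, against 33.4, 45.6 and 54.7 CPM with the empty plasmid, and the groups overlapped. Parp9, the partner of the ligase Dtx3l, lies beside Parp14 and had 105, 118 and 139 CPM in WT FL, against 59.5, 102 and 74.1 CPM in WT control (0.64 ± 0.24, adjusted p = 0.149). Parp9 and Dtx3l share exon sequence on opposite strands, so reads from the shared stretch cannot be told apart. Parp12 was not called, and WT control 1 held its highest value, 42.3 CPM.

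Among the other induced genes, Epsti1, named for its induction in breast epithelium by stroma, had the smallest adjusted p of any member for FL in Clec9a gfp/gfp. It had 256, 205 and 301 CPM in Clec9a gfp/gfp FL, against 75.1, 153 and 111 CPM in Clec9a gfp/gfp control. The groups lay apart at 1.20 ± 0.26 (limma, adjusted p = 0.0225), and without Clec9a gfp/gfp FL 3 the change was still 1.07, with an adjusted p of 0.130. In WT cDC1s Epsti1 had 157, 204 and 175 CPM with FL, against 120.3, 143 and 199 CPM with the empty plasmid (0.23 ± 0.26). Helz2, a helicase and coactivator of nuclear receptors, had 44.2, 42.9 and 100.3 CPM in Clec9a gfp/gfp FL, against 23.1, 27.1 and 15.5 CPM in Clec9a gfp/gfp control (1.39 ± 0.41, adjusted p = 0.0791). It was nearly as high in WT FL, at 61.4, 53.0 and 25.1 CPM, against 32.4, 12.5 and 13.8 CPM in WT control, and missed the threshold there (1.24 ± 0.41, adjusted p = 0.103). Ifi44 had 46.9, 37.8 and 99.4 CPM in Clec9a gfp/gfp FL, against 21.5, 22.3 and 36.4 CPM in Clec9a gfp/gfp control. These groups did not overlap, and the change of 1.08 ± 0.35 narrowly missed (adjusted p = 0.108). Ly6e, the most abundant member, had 1753, 1939 and 1758 CPM in Clec9a gfp/gfp FL, 2116, 1873 and 2018 CPM in WT FL, 1725, 2423 and 1814 CPM in Clec9a gfp/gfp control and 2226, 2738 and 2729 CPM in WT control. Every WT FL value of Ly6e was below every WT control value, without a call (−0.35 ± 0.18, adjusted p = 0.264). Ifi35, which binds the STAT regulator Nmi, had 154, 122 and 130.5 CPM in WT FL, against 183, 155 and 255 CPM in WT control. Xaf1, a promoter of apoptosis, had 36.3, 44.2 and 27.9 CPM in WT FL, against 39.0, 38.3 and 66.9 CPM in WT control. WT control 3 held the highest value of Ifi35 and of Xaf1, and neither was called. Lgals3bp and Rtp4 were not called in any comparison.

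The changes of the members were also set against the length of the gene, beginning with FL. Exonic length is the summed length of all exons of a gene in the annotation, and its median over the members was 3995 bases. All 6 members called in WT were among the 21 longer ones, whereas in Clec9a gfp/gfp 3 of the 5 called were among the 22 others and 2 among the longer. In WT the median log2 fold change was 0.64 in the longer members and 0.16 in the others, and over all genes split at the same length it was 0.18 and −0.21. Across the 43 members Pearson's r of fold change and log2 length was 0.593 in WT and 0.139 in Clec9a gfp/gfp, and across 11242 genes it was 0.346 and −0.012. For loss of DNGR-1 in controls r was 0.559 across the members and 0.407 across all genes with a length. For Clec9a gfp/gfp FL over WT control it was 0.543 and 0.288, and for the interaction −0.493 and −0.328. For loss of DNGR-1 under FL it was −0.016 and 0.018. These are correlations across genes that share the same libraries, given as a description. Of the 12 libraries, WT control 3 had the steepest trend of its values with length (−0.256 per doubling of length), against −0.103 to 0.110 in the others. With each library's trend with length removed, an alternative added after seeing the data, FL called 3 members in WT, Oas3, Uba7 and Adar, and the median of the members was 0.28. Across the members r was then 0.377 for FL in WT and 0.261 for loss of DNGR-1 in controls. It was 0.325 for Clec9a gfp/gfp FL over WT control and −0.236 for the interaction. The part of library quality in these trends was not tested.

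**Figure D4:**
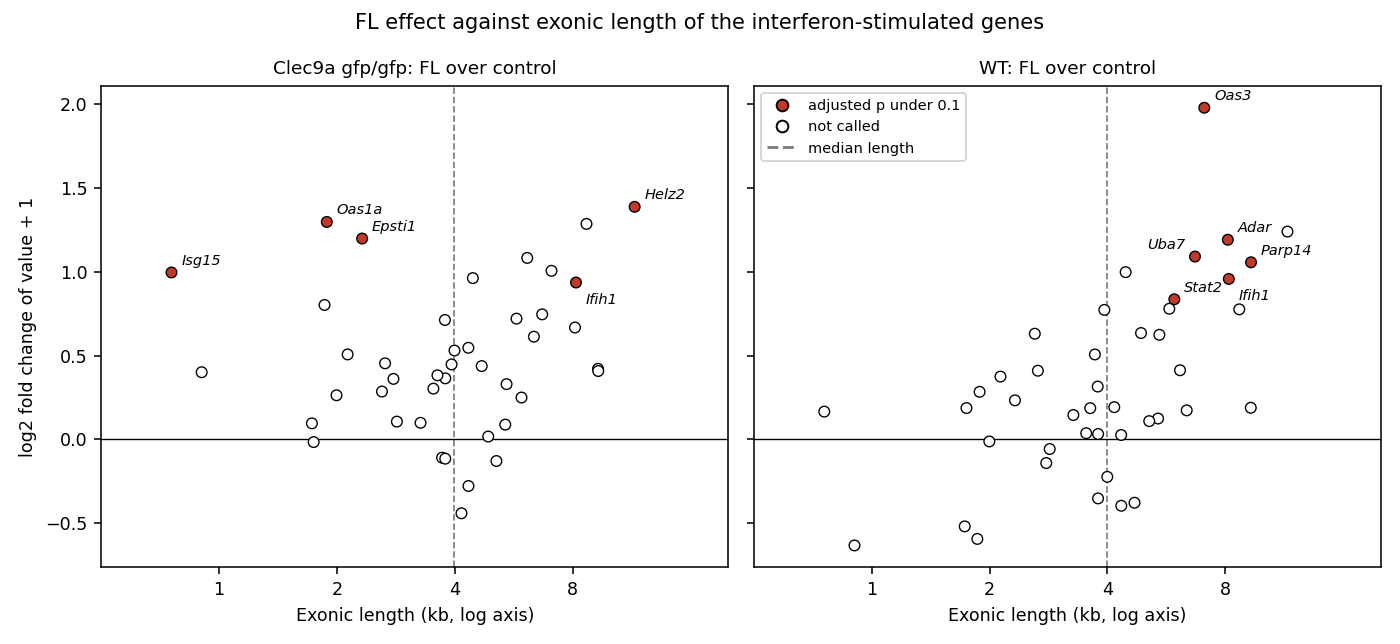
Log2 fold change of value + 1 for FL over control against exonic length on a log axis, for the 43 members in Clec9a gfp/gfp (left) and WT (right) cDC1s, with called genes filled and named. In the WT panel all 6 called genes lie to the right of the dashed line at the median length, and in the Clec9a gfp/gfp panel 3 of 5 lie to its left.

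The rest of the pathway was followed in lists of genes outside the members. Of the receptor, Ifnar1 had 148 to 181 CPM in WT FL, against 82.2 to 154 CPM in WT control, and Ifnar2 had 116 to 129 CPM in Clec9a gfp/gfp FL, against 149 to 243 CPM in Clec9a gfp/gfp control. Ifnar1 was 0.58 ± 0.21 higher in WT (limma, adjusted p = 0.138) and Ifnar2 stood at −0.54 ± 0.20 in Clec9a gfp/gfp (adjusted p = 0.169), so neither subunit was called for FL. The genes of the type I interferons themselves were not analysed here. Of 8 kinases, STATs and IRFs, FL called 1 in WT, Tyk2 (1.07 ± 0.26, adjusted p = 0.0504), and 0 in Clec9a gfp/gfp. Of 10 measured genes of sensing upstream of interferon, FL lowered Mb21d1, which encodes the DNA sensor cGAS, in Clec9a gfp/gfp (−1.25 ± 0.26, adjusted p = 0.0198), and called none in WT, where Mb21d1 stood at −0.57 ± 0.26. Of 8 brakes on the signal, such as Socs1, FL called 0 in either genotype. At an unadjusted p under 0.05, 2 were lower in Clec9a gfp/gfp, Socs1 and Ptpn11, and 1 was lower and 1 higher in WT. At that level 9.16% of all genes were lower in Clec9a gfp/gfp, and 8.25% were lower and 13.7% higher in WT. Of all genes, FL called 2.01% higher and 3.45% lower in Clec9a gfp/gfp, and 5.37% higher and 1.19% lower in WT.

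A further 53 interferon-stimulated genes that are no members gave 2 called higher and 0 lower for FL in Clec9a gfp/gfp, Oas1g and Ifi27l2a, and 3 higher and 1 lower in WT. Beside these stand 2.01% of all genes called higher in Clec9a gfp/gfp, and 5.37% called higher and 1.19% lower in WT, so the WT counts lay near the share of all genes. The higher ones in WT were Parp10 (1.37 ± 0.26, limma, adjusted p = 0.0388), Pml and Apobec3, and the lower one Ifi203 of the AIM2-like receptors. The median of this list was 0.17 in Clec9a gfp/gfp and 0.02 in WT, below that of the members in both. Of 23 genes best known for their induction by interferon gamma, FL called 1 higher in Clec9a gfp/gfp, Nlrc5, and 5 higher in WT, Nlrc5, Gbp9, Gbp4, Gbp8 and Ciita, with 0 lower in either. The median of these 23 was only 0.08 in Clec9a gfp/gfp and 0.09 in WT. Nlrc5, the transactivator of MHC class I genes, was raised by 0.93 ± 0.26 in Clec9a gfp/gfp (adjusted p = 0.0686) and by 1.57 ± 0.26 in WT (adjusted p = 0.0325). Many of these genes respond to both kinds of interferon, so the lists do not separate them.

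The members with an ISRE core in the promoter window were also compared with those without, as a description. In Clec9a gfp/gfp cDC1s the median FL effect was 0.50 in the 12 members with the core and 0.49 in the 20 without. In WT cDC1s it was 0.35 in the 12 and 0.21 in the 20. Of the members called in Clec9a gfp/gfp, Ifih1, Isg15 and Oas1a had the core and Epsti1 and Helz2 did not. Of those called in WT, Ifih1, Oas3 and Stat2 had it, Uba7 and Adar did not, and Parp14 was not in the table. A window of Adar begins at chr3:89730468, inside the gene, whose annotated start is chr3:89715022, so the result for Adar need not cover that start.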

How the data were processed

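The authors sequenced poly(A) RNA of sorted cDC1s as 61-base single-end reads on a HiSeq instrument, after SMARTer cDNA synthesis and Nextera XT library preparation, which does not keep the strand. The submitters' processing notes name CASAVA 1.8.2 for demultiplexing, cutadapt 1.3 for trimming (with a minimum read length of 30 bases) and RSEM 1.2.3 for quantification on the GRCm38 transcriptome of Ensembl release 91. The authors normalized by TMM in limma and deposited a signal value for each of 11264 genes and 12 libraries, as counts per M (1000000) counts of the TMM-scaled library (CPM). Each value equaled a whole count plus 0.5 over a size particular to the library, within 0.02 counts. Those sizes ran from 3.06 to 25.9 M. The filter that left these genes is not given in the sources used here, so a gene outside it was not analysed here, and 106 of its genes have no symbol. RSEM shares reads between near-identical copies, and 5 members (Herc6, Irf7, Irf9, Parp9 and Trim14) share exon sequence with another gene of the table.

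Groups came from the sample labels. Values were taken to log2(value + 1). The 11255 genes with a mean of at least 1, all 43 members among them, were fitted in limma 3.58.1 (R 4.3.3) with 1 mean per group over the 12 libraries and a mean-variance trend, tested on simulated data beforehand. P-values were adjusted by Benjamini-Hochberg over all genes within a comparison and called under 0.1, the study's threshold. They measure the spread between pools of mice. Fold changes are on the log2(value + 1) scale, which understates the change of low genes. The members, their role groups and the other lists were chosen with earlier results of these data known. Named with values per library were the members called in any comparison, the 3 highest and 3 lowest members of each single-factor comparison, and Irf7, Stat2, Irf9, Isg15, Usp18, Mx1 and Bst2. From other lists, called genes and up to 4 with the smallest p could be named. Coordinates are on GRCm38 and exonic lengths come from GENCODE M21. Alternatives were other pseudocounts, filters, scalings, limma-voom, sample weights, a replicate block, only the groups compared, and each library left out. Added after seeing the data were a correction for length and leaving out Clec9a gfp/gfp FL 3 with Clec9a gfp/gfp control 3.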

Additional observations from a re-analysis of the deposited data

How the results depend on the processing

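Counts of members called for FL in Clec9a gfp/gfp were 5 in the fit described and 1 in limma-voom, 8 with only the groups compared, 9 with sample quality weights and 0 without Clec9a gfp/gfp FL 3 and Clec9a gfp/gfp control 3. The share of all genes called higher there was 2.01% and became 1.08%, 3.31%, 5.37% and 0%. For FL in WT, 6 became 1 with only the groups compared and 3 with the length correction, beside 5.37%, 0.871% and 1.66% of all genes. For Clec9a gfp/gfp FL over WT control, 17 higher became 11 with sample weights and 1 without those 2 libraries (12.8%, 11.3% and 1.32% of all genes), and the 1 lower became 0 there, with column totals and with only the groups compared. Leaving out single libraries gave 0 to 8 higher for FL in Clec9a gfp/gfp, 0 to 9 higher and 0 to 2 lower for FL in WT, 0 to 6 higher and 0 to 4 lower for loss of DNGR-1 in controls, and 3 to 19 higher and 0 to 2 lower for Clec9a gfp/gfp FL over WT control. Under FL, the genotype difference changed sign for Oas3 (range −0.84 to 0.38) and Trim14 (−0.46 to 0.00078) as single libraries were left out, and the FL effect on Eif2ak2 in Clec9a gfp/gfp did so too (−0.33 to 0.015), none of them called. The cause of these changes was not tested. Scaling to column totals moved the median of all genes by over 0.1, to 0.11 for FL in WT, with 964 genes higher and 37 lower in place of 604 and 134, to 0.14 for loss of DNGR-1 in controls and to −0.16 for the interaction. The medians of the members were then 0.31, 0.17 and 0.03. Deviations of same-numbered libraries correlated at −0.217 to 0.339, with 5 of 18 pairs above 0.1. For libraries of different numbers the range was −0.3 to 0.447, with 7 of 36 pairs above 0.1. The paper's legend reports 3 independent experiments, but the labels do not say that the numbers 1 to 3 mark them. These correlations cannot decide whether same-numbered libraries belong together, so the numbers were used as a block only in an alternative. With the replicate block the counts of members were again 5 for FL in Clec9a gfp/gfp and 6 for FL in WT, although Isg15 had an adjusted p of 0.104 under it. A planned quasi-likelihood test on the recovered counts was not run, and limma-voom was the count-based alternative. The shallow Clec9a gfp/gfp control 3 limits the comparisons that use it.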
